A study of Mus musculus with 24 samples.

Results

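Both arms of miR-126, the microRNA made from an intron of Egfl7 and known for its high level in endothelial cells, were followed in wild type lungs and in those of the SP-C/c-raf mouse line. The members were chosen by name, as the rows for mmu-miR-126-3p and mmu-miR-126-5p in the scanner files, and they were 2 of the 611 mouse miRNAs on the array. Total RNA of each lung was labelled with Cy3 and hybridised to a 1-colour Agilent mouse miRNA array, with 1 animal per array. There were 24 arrays in 4 groups of 6, M WT (wild type males), F WT (wild type females), M c-Raf (transgenic males) and F c-Raf (transgenic females), and all animals were 4 to 6 months old. The transgene is an active c-Raf-1 kinase under the surfactant protein C promoter, which directs it to the lung epithelium and not to the endothelium. The labels state that cells were microdissected from frozen sections before RNA extraction without naming the cell type, and they give the tissue as lung adenocarcinoma for wild type arrays too. In such bulk RNA, a different number of endothelial cells and a different level of miR-126 per cell cannot be told apart.

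A microRNA hairpin is cut by Dicer into a duplex of a 5p and a 3p strand, and usually one of both strands is loaded into an Argonaute protein while the other is degraded. The loaded strand finds target mRNAs through its seed near the 5′ end. miR-126-3p is the arm best known from vessels, where it lowers inhibitors of VEGF signalling such as Spred1 and Pik3r2 and supports vessel integrity. miR-126-5p is the other strand of the same hairpin, for which roles in endothelial proliferation and leukocyte traffic are described, through targets such as Dlk1.

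The sequence of the 3p arm is shown with its hairpin because the arms were the members and only the 3p arm gave a signal. RefSeq, on build GRCm38.p6, lists the gene as Mir126a at chr2:26591357-26591429 on the plus strand, within the bounds of Egfl7, and the mature strand as miR-126a-3p at chr2:26591402-26591423. In the hairpin the capitals mark the mature 3p strand, bases 46 to 67 of 73, and in the mature strand they mark the seed, bases 2 to 8.
Mir126a hairpin: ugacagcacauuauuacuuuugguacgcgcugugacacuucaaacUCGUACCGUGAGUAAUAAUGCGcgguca
miR-126a-3p: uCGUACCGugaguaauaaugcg
Of the 1738 mature mouse miRNAs in the RefSeq table, 1 held this seed, miR-126a-3p itself. Of the members, 1 had a mature sequence there; miR-126-5p is named only.

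Each array carried 20 spots for each arm, made of 2 probes in 10 spots each. Intensities are in arbitrary units after background subtraction, so they can fall below 0. The arrays differed strongly in signal: their brightness, the 75th percentile of spot intensity over the 27 mouse miRNAs detected on every array, ran from 34.9 units on M c-Raf replicate 6 to 1212 units on M c-Raf replicate 4, and 38 to 179 mouse miRNAs were detected per array. The replicate number was also the slide, so every slide held 1 array of each group, and the slides were read in 4 scans. A group always took the same place on its slides, so place and group cannot be told apart. By the markers of other cell types, the epithelial miR-200 family, the mesenchymal miR-199a-3p and miR-214, and the red cell miRNAs miR-451 and miR-486 were measured in the lungs, while neither brain marker, miR-9 or miR-124, was detected on any array. Of the other markers from outside the lung, 2 of 5 for striated muscle, miR-133a and miR-133b, and the 1 for liver, miR-122, were detected on at least 1 array. The endothelial list of markers was the 2 arms themselves, so no marker independent of them bears on the endothelial label.

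The 2 arms differed in whether they could be measured at all. miR-126-3p was detected on 23 of 24 arrays and miR-126-5p on 0 of 24. Detection here is the flag that the extraction software gives a miRNA on an array.

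For miR-126-5p, the software listed a total gene signal of 0.1 on every array, its value for a miRNA that is not detected. The median spot intensity of the 5p arm ran from -3.14 units on M WT replicate 5 to 3.71 units on M WT replicate 2, with a median of 0.708 over the arrays, and it was below 0 on 4 arrays. On all 24 arrays it lay under the lowest signal of a mouse miRNA spot well above background, which was 6.77 to 26.99 units depending on the array. The 434 negative control spots of an array had medians of -1.88 to 2.83 units and SDs of 2.19 to 33.6 units, widest on F WT replicate 4. The 5p arm was within 1 SD of that median on 21 arrays and within 2 SD on 24, a loose limit where the SD was wide. Of its 480 spots, 2 were well above background, 1 each on F WT replicate 3 and F WT replicate 5. By group, the lowest, median and highest 5p intensities were -3.14, 0.519 and 3.71 units in M WT, -0.971, 1.04 and 2.79 in F WT, 0.0518, 0.597 and 2.63 in M c-Raf, and -0.554, 0.706 and 2.65 in F c-Raf. The groups overlapped over most of their range. miR-126-5p was thus not well above background in any group, gave no fold change and entered no test. It was not detectable at the signal of these arrays, which does not show that it was absent.

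**Figure D1:**
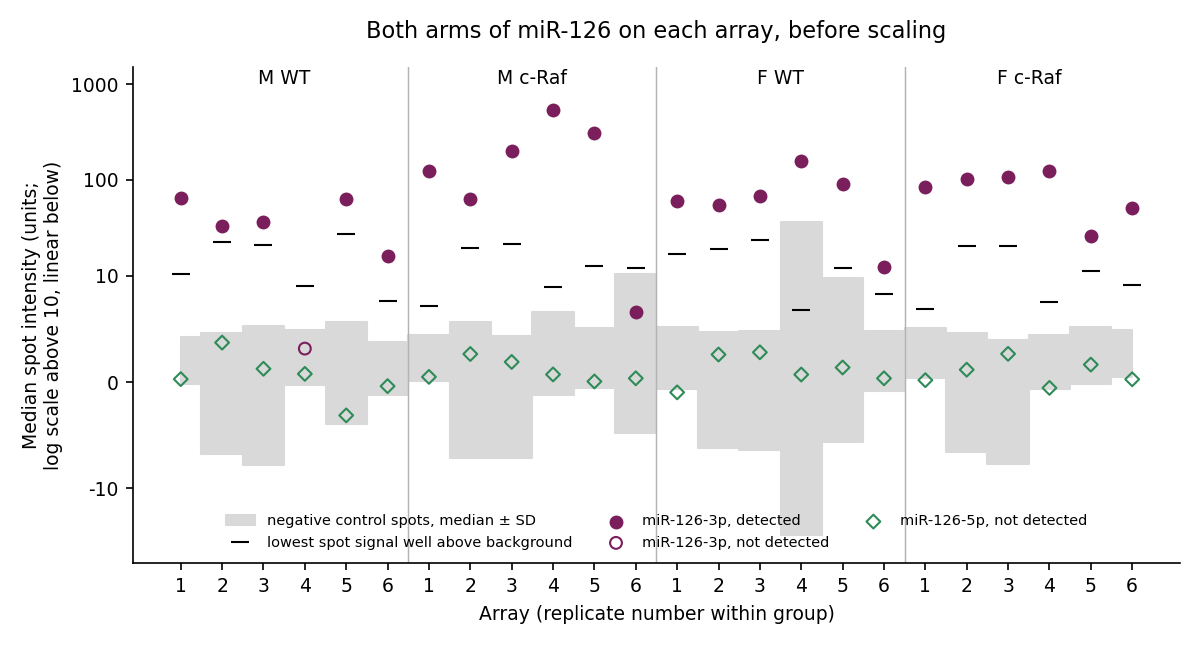
Median spot intensity of miR-126-3p (circles) and miR-126-5p (diamonds) on each of the 24 arrays before scaling, on an axis that is logarithmic above 10 units and linear below, with the negative control spots of the array (grey, median ± SD) and the lowest spot signal well above background (black dashes). The 5p arm stayed between -3.14 and 3.71 units on every array, while the 3p arm ran from 3.14 to 544 units and was not detected on M WT replicate 4 (open circle).

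For miR-126-3p, the raw intensity was 3.14, 34.9 and 64.8 units as the lowest, median and highest value in M WT, 12.4, 63.6 and 158 in F WT, 6.56, 162 and 544 in M c-Raf, and 25.7, 92.6 and 123 in F c-Raf. Of its 480 spots, 430 were well above background, and all 20 spots were so on 18 arrays. The 3p arm was weakest on arrays that were dim as a whole. On M WT replicate 4, with a brightness of 52.8 units, it was not detected and none of its 20 spots was well above background. On M c-Raf replicate 6, the dimmest array, it was flagged as detected with 1 of 20 spots well above background, so its level there rests on little signal too.

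To compare the arrays, each intensity was divided by the brightness of its array, and log2 was taken. On this scale miR-126-3p had its lowest level in M WT, at -4.07, -2.40 and -1.67 as the lowest, median and highest array, with a mean of -2.52 ± 0.87 (SD, n = 6). In F WT it was at -2.23, -2.06 and -1.71, with a mean of -2.01 ± 0.22. In M c-Raf it was at -2.41, -1.42 and -1.15, with a mean of -1.57 ± 0.44, and in F c-Raf at -1.86, -1.57 and -0.97, with a mean of -1.47 ± 0.36. The means of both transgenic groups thus lay above those of both wild type groups. The neighbours in this order, M WT and F WT at the low end and M c-Raf and F c-Raf at the high end, did not differ beyond their spread, and the ranges of F WT and M c-Raf, which were not compared by a test, overlapped.

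**Figure D2:**
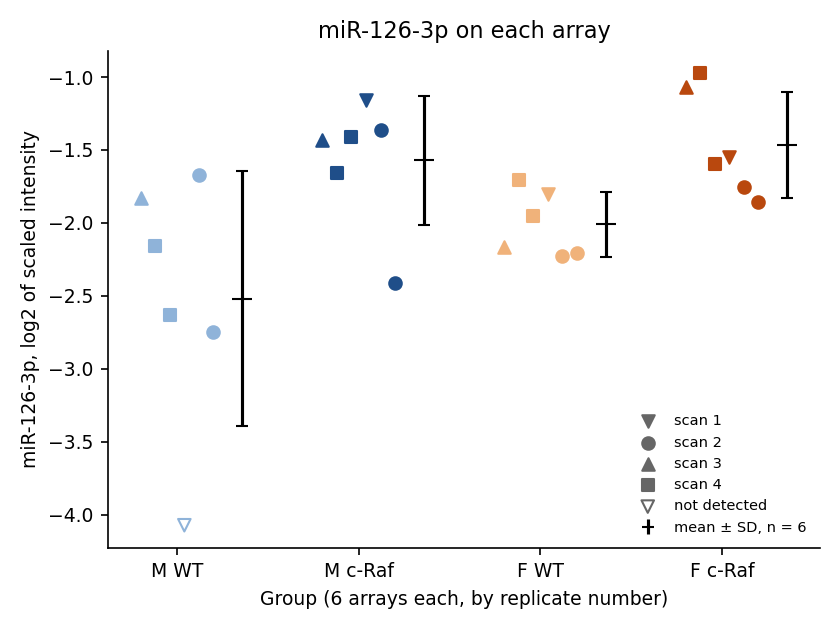
miR-126-3p on each array as log2 of the scaled intensity, by group, with the marker shape giving the scan, the open marker the array without detection, and the bars the mean ± SD of 6 arrays. Of the M c-Raf arrays 5 of 6 lay above every M WT array, of the F c-Raf arrays 4 of 6 lay above every F WT array, and M WT had the widest spread.

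Whether the c-Raf transgene went with another level of miR-126-3p was asked first over both sexes, with all 24 arrays in 1 limma model. miR-126-3p was higher in c-Raf lungs by 0.75 on the log2 scale (SE 0.21, 95% interval 0.30 to 1.19, limma adjusted p = 0.0217), which is 1.68-fold (1.23 to 2.28). It was 1 of 18 miRNAs called among 120 tested, a background of 15.0%, with 13 called higher and 5 lower, and the median difference over all tested miRNAs was 0.09. Its p ranked 11 among the 120. The mean of both sexes' differences was above 0 on 6 of 6 slides. By scan it was 1.59, 0.37, 0.75 and 0.70 in scans 1, 2, 3 and 4. Each scan held whole slides, so the scan values follow from those of the slides and add no separate support. How many of the 120 miRNAs kept 1 direction on all slides was not counted, here or within a sex. The call held with any 1 array left out, with differences of 0.59 to 0.83 and adjusted p of 0.00810 to 0.0440, the lowest difference being that without M WT replicate 4. It held with the replicate number, which is the slide, as a block (adjusted p = 0.0153), a fit that called 32 miRNAs in place of 18.

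The call depended on how the arrays were made comparable. It was lost when each array was scaled to the percentile over all non-control spots (difference 1.15, limma adjusted p = 0.523), without scaling (1.22, adjusted p = 0.417), with quantile normalization (0.82, adjusted p = 0.0662) and with normexp background correction (0.39, adjusted p = 0.998). Fits in these settings called 3, 1, 13 and 0 miRNAs in turn, so with normexp no miRNA was called. These settings also moved the median of all tested miRNAs, to 0.61, 0.50, 0.13 and -0.08, and in all 18 alternative settings miR-126-3p lay above that median, by 0.47 to 0.76. The 18 include a percentile without both arms of miR-126, which could not move the value, as neither arm was among the miRNAs used for it. In the deposited value table, which is scaled to all spots, the difference was 1.14 (adjusted p = 0.520). With the total gene signal of the files it was 0.84 (adjusted p = 0.202), and with all 611 miRNAs in the adjustment the adjusted p of the same 0.75 was 0.126.

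**Figure D3:**
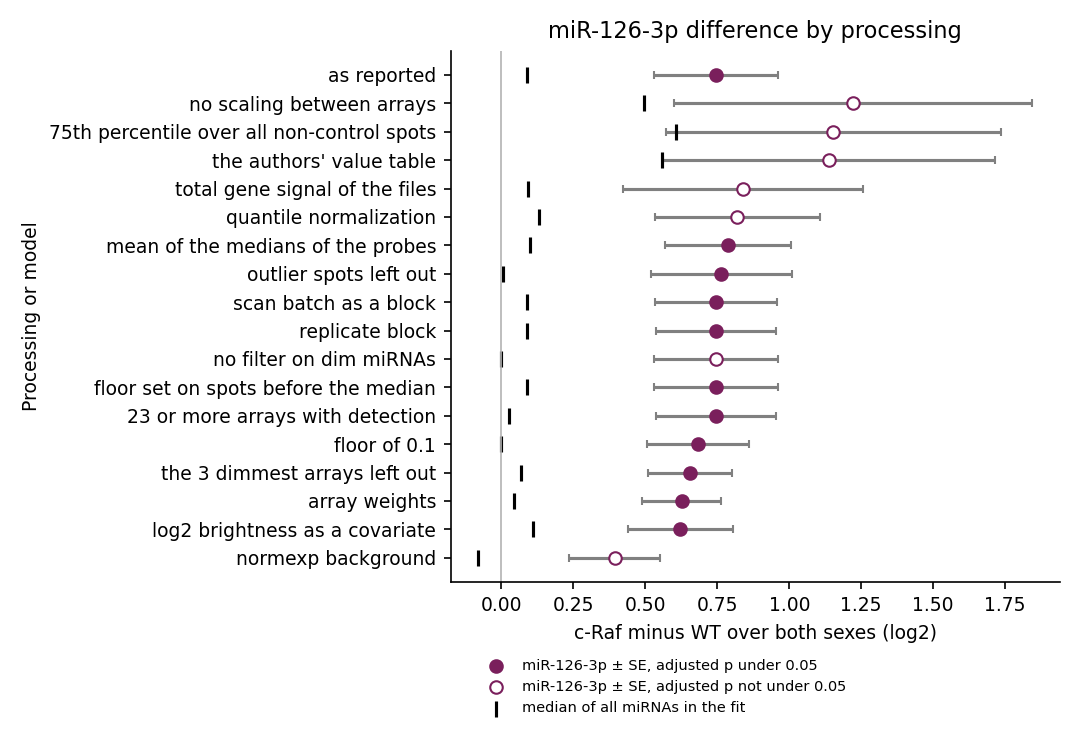
Difference of c-Raf and WT in miR-126-3p over both sexes (log2, circles with SE) under each way of processing or modelling the arrays, filled where the limma adjusted p was under 0.05, with the median over all miRNAs of the same fit as a black tick. The difference lay between 0.39 and 1.22, above the tick in every setting, and the error bars were widest where the arrays were not scaled to the miRNAs detected on every array.

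In males, M c-Raf minus M WT was 0.95 (SE 0.30, 95% interval 0.32 to 1.58), or 1.93-fold, with a limma p of 0.00497 that did not pass the adjustment (limma adjusted p = 0.108). In this comparison 3 of 120 miRNAs were called, a background of 2.5%, and the median difference was 0.08. The difference was above 0 on 6 of 6 slides, at 0.40, 0.50, 1.22, 2.92, 0.31 and 0.33 on slides 1 to 6. Slide 4, with the largest value, held M c-Raf replicate 4, the brightest array of the series, and M WT replicate 4, on which miR-126-3p was not detected. Without that array the difference was 0.64 (adjusted p = 0.286), and with its value set to the lowest signal well above background on it, -2.56 on the log2 scale, the difference was 0.69. The limma adjusted p passed the threshold without M c-Raf replicate 6 (difference 1.11, adjusted p = 0.0348), without M WT replicate 5 (1.12, adjusted p = 0.0465) and without the 3 dimmest arrays (0.80, adjusted p = 0.0493). The male difference was called in 2 of the 24 fits with 1 array left out and in 2 of 19 alternative settings. In most fits it was thus not called. Over the settings it ran from 0.17 with normexp to 2.12 without scaling. By the methods' t-test, run on linear scaled values, the male log2 difference was 2.03. That test, adjusted without the detection filter, called 0 miRNAs in males, so miR-126-3p was not called by it.

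In females, F c-Raf minus F WT was 0.54 (SE 0.30, 95% interval -0.08 to 1.17), or 1.46-fold, and was not called (limma adjusted p = 0.431). Here 6 of 120 miRNAs were called, a background of 5.0%, and the median difference was 0.03. The difference was above 0 on 6 of 6 slides, at 1.10, 0.73, 0.36, 0.26, 0.47 and 0.35 on slides 1 to 6, a narrower range than in males. With the replicate block 10 miRNAs were called and miR-126-3p was not among them (adjusted p = 0.322). Left-out arrays moved it between 0.45 and 0.62, and none of them made it pass. In 19 alternative settings the female difference lay above the median of all miRNAs in the fit by 0.003 to 0.61. The lowest was with normexp, where a difference of 0.623 stood beside a median of 0.619. By the methods' t-test the female log2 difference was 0.56, and that test called 0 miRNAs in females too.

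**Figure D4:**
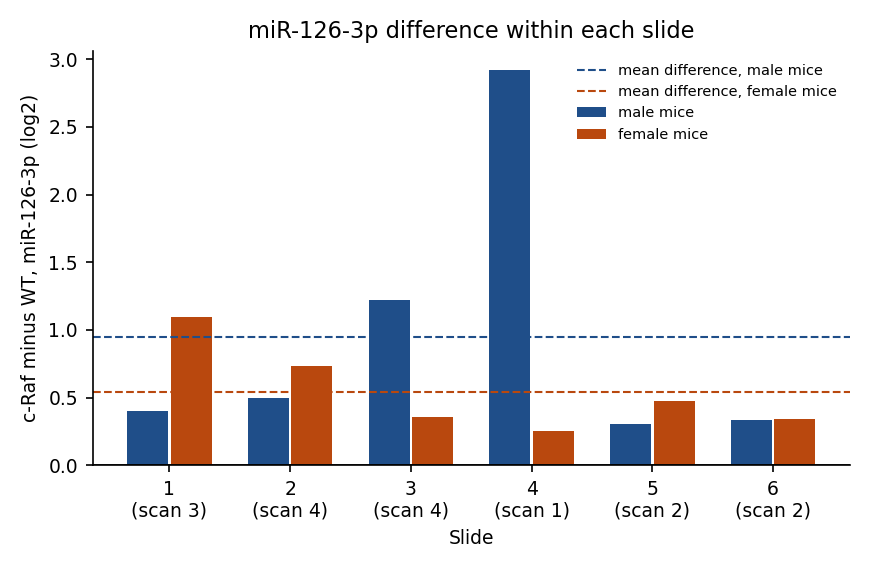
c-Raf minus WT in miR-126-3p (log2) within each of the 6 slides, for male (blue) and female (orange) mice, with the mean differences of 0.95 and 0.54 as dashed lines and the scan of each slide below it. Every bar lies above 0, and the male bar of slide 4, at 2.92, stands apart from the others.

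An interaction term asked whether the difference itself was unequal in male and female mice. The c-Raf difference in males exceeded that in females by 0.40 (SE 0.43, 95% interval -0.49 to 1.29, limma adjusted p = 0.865), which is within the error, and the interval holds differences of either sign. No miRNA of the 120 was called by limma in this comparison, a background of 0.0%, and 4 had an unadjusted p under 0.05. Without M WT replicate 4 the value was 0.09.

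Between the sexes within a genotype, miR-126-3p did not pass the test. M WT minus F WT was -0.51 (SE 0.30, 95% interval -1.14 to 0.12, limma adjusted p = 0.588) in a comparison in which limma called 0 of 120 miRNAs, a background of 0.0%, and 11 had an unadjusted limma p under 0.05. The methods' t-test, adjusted over the mouse miRNAs of the array without the detection filter, called none either. M WT minus F WT was -0.20 without M WT replicate 4. M c-Raf minus F c-Raf was -0.11 (SE 0.30, 95% interval -0.73 to 0.52, limma adjusted p = 0.992), with 3 of 120 miRNAs called, a background of 2.5%, and its sign turned without M c-Raf replicate 6 (0.062), without scaling (0.59) and in 4 other settings.

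The 2 probes of miR-126-3p gave like differences. Over both sexes c-Raf minus WT was 0.78 by the first probe and 0.79 by the other, in males 0.99 and 0.99, and in females 0.57 and 0.59. Each probe was higher in c-Raf on 6 of 6 slides in each sex. The probes correlated with a Pearson r of 0.984 over the 24 arrays, which share their RNA, brightness and scaling. The coefficient of variation over the 10 spots of a probe had a median of 8.87% and reached 89.2% on M WT replicate 4.

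The level of miR-126-3p moved with the brightness of the arrays even after scaling. Over the 24 arrays the scaled log2 value rose with log2 brightness, with a Pearson r of 0.583 (permutation p = 0.00304) and a Spearman rho of 0.479 (permutation p = 0.0181). The r fell to 0.544 once the 2 arrays of the most extreme brightness, by distance from the median, were left out. This was the only relation across arrays that was tested. It was 0.577 over the 8 arrays of scan 2 and 0.267 over the 8 of scan 4, while scans 1 and 3, of 4 arrays each, were too small for a value. Mean brightness was 162 units in M WT against 518 in M c-Raf, and 290 in F WT against 222 in F c-Raf, so it ran with the transgene in males and against it in females. With log2 brightness as a covariate the difference over both sexes was 0.62 (limma adjusted p = 0.0255), that in males 0.64 and that in females 0.60 (adjusted p = 0.197 and 0.191).

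**Figure D5:**
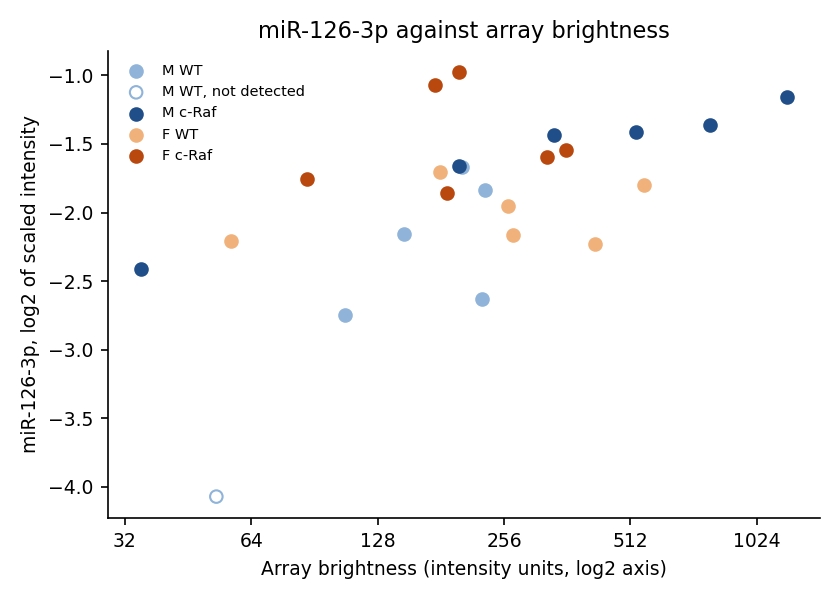
miR-126-3p as log2 of the scaled intensity against array brightness in intensity units (log2 axis), with 1 point per array coloured by group and the array without detection open. Brightness ran from 34.9 to 1212 units, and the lowest 2 values, on M WT replicate 4 and M WT replicate 6, came from arrays of 52.8 and 107 units.

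Which miRNAs had a pattern most like that of miR-126-3p was described by Pearson r over the 24 arrays, without a test, since the points share RNA, brightness and scaling. Among the 119 other tested miRNAs the median r was 0.06. The highest were let-7g at 0.830, let-7i at 0.818 and miR-429, a member of the epithelial miR-200 family, at 0.808, with the next miRNA at 0.803, so this order rests on small steps. Of deviations from the group means, pooled over the 4 groups, r was 0.738, 0.802 and 0.741, at ranks 8, 2 and 7 of the 119. The likeness thus did not rest on the group means alone. An r within a single group or without M WT replicate 4 was not taken. The lowest M WT arrays of let-7g, let-7i and miR-429 stood at -4.31, -2.65 and -6.64, beside M WT medians of -2.49, -0.76 and -4.62. let-7g was detected on 23 arrays and was higher in c-Raf over both sexes by 0.59 (SE 0.20, limma adjusted p = 0.0442). let-7i, detected on all 24, had a difference of 0.30 (SE 0.19, adjusted p = 0.309), which was above 0 on 6 of 6 slides without being called. miR-429 was detected on 13 arrays, 1 of M WT, 3 of F WT, 4 of M c-Raf and 5 of F c-Raf. It was higher by 0.73 (SE 0.20, limma adjusted p = 0.0181).

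Other miRNAs of endothelium and vessel growth mostly did not pass the test. Of a list of 25, such as the let-7, miR-23/27/24, miR-17-92 and miR-221/222 members, 25 were on the array, 18 were detected on at least 1 array and 15 were tested. Over both sexes 1 of the 15 was called higher and none lower, against 15.0% called of all tested miRNAs, with 11 of the 15 above 0 and a median difference of 0.18 beside 0.09 over all 120. Over the 24 arrays their r with miR-126-3p had a median of 0.47, beside 0.06 over the 119 other miRNAs, and ran from -0.741 for miR-92a to 0.757 for miR-24. This was not particular to the endothelial list: the 5 tested epithelial markers had a median r of 0.57, from -0.086 for miR-200c to 0.808 for miR-429. The one called of the endothelial list was miR-130a, known to lower the antiangiogenic homeobox genes Gax and Hoxa5. It was at -4.61 ± 1.28 (SD, n = 6) in M WT, -3.41 ± 0.15 in M c-Raf, -3.74 ± 0.38 in F WT and -3.10 ± 0.44 in F c-Raf, a difference over both sexes of 0.92 (SE 0.28, limma adjusted p = 0.0281) that was above 0 on 6 of 6 slides. M WT was again the group with the widest spread, and its lowest array stood at the floor of -6.64. The other 14 had differences from -0.46 for miR-296-5p to 0.53 for miR-322 and did not pass. In males and in females alone 0 of the 15 were called, with 12 and 8 of them above 0. The summed scaled level of the list was 3.27 to 4.35 in M WT, 3.30 to 3.57 in M c-Raf, 3.41 to 3.89 in F WT and 2.94 to 3.59 in F c-Raf on the log2 scale. The values are summed before log2 is taken, so the brightest members weigh most. This sum was not higher in the c-Raf groups, although 11 of the 15 tested members had a difference above 0.

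Of the markers of other cell types, 4 single miRNAs were called over both sexes, beside the 15.0% called of all tested miRNAs. Of 8 epithelial markers, 7 were detected on at least 1 array, miR-203 on none, and 5 were tested. Over both sexes 2 of the 5 were called higher, miR-429 and miR-200a (0.73, SE 0.21, limma adjusted p = 0.0217), both of the miR-200 family that keeps epithelial cells from a mesenchymal state by lowering Zeb1 and Zeb2. The median difference of the 5 was 0.73, beside the 0.75 of miR-126-3p. The 3 that did not pass were miR-200b at 0.75 (adjusted p = 0.0507), miR-375 at 0.25 and miR-200c at 0.23. The summed epithelial level was -0.64 to 0.52 in M WT, -0.47 to 1.05 in M c-Raf, -0.18 to 0.75 in F WT and 0.28 to 0.97 in F c-Raf. miR-200a was dim, with a mean of -6.28 in M WT, where it was detected on no array, and -4.91 in F c-Raf, where it was detected on 5.

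Of 3 mesenchymal markers on the array 2 were tested, and miR-214 fell by 0.86 over both sexes (SE 0.14, limma adjusted p = 0.000156), with a summed level of the 3 of -1.88 to -1.11 in M WT, -2.18 to -1.91 in M c-Raf, -2.14 to -1.51 in F WT and -2.16 to -1.88 in F c-Raf. The other, miR-199a-3p, had a difference of 0.21 (SE 0.13, adjusted p = 0.301), so the 2 members lay on opposite sides of 0. Over the 24 arrays r with miR-126-3p was -0.782 for miR-214 and 0.710 for miR-199a-3p. Of 3 red cell markers 2 were tested, and miR-486 fell by 1.10 (SE 0.23, adjusted p = 0.00214), with a summed level of -3.19 to -0.94 in M WT, -3.29 to -2.44 in M c-Raf, -3.04 to -1.98 in F WT and -3.29 to -2.34 in F c-Raf, and with miR-144 detected on no array. The other, miR-451, had a difference of 0.38 (SE 0.28, adjusted p = 0.396), and r with miR-126-3p was -0.490 for miR-486 and 0.765 for miR-451. Of 5 leukocyte markers 3 were tested and none was called, at -0.39 for miR-150, -0.09 for miR-155 and 0.66 for miR-223, with miR-142-3p and miR-142-5p detected on no array. Of the 3 ciliated cell markers tested and the 2 of striated muscle, 0 were called. Neither smooth muscle marker, miR-143 or miR-145, was detected on the 6 arrays needed for a test. The part of the called markers in the difference of miR-126-3p was not tested.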

How the data were processed

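miRNA profiles of 24 lungs, in 4 groups of 6 animals by sex and genotype as the labels give them, were analysed from the deposited scanner files. Per the file headers, Agilent Feature Extraction 10.7.3.1 made background-subtracted, detrended spot intensity values with no scaling between arrays, and flags for detection, and the design is on build mm9; the labels name version 8.1.3. The authors also deposited a table of linear intensity values, the median over spots scaled by 1 factor per array, which served as an alternative. Here gProcessedSignal was scaled to the brightness of its array, the 75th percentile of the spots for the 27 mouse miRNAs that every array detected, the median over spots was taken, values under 0.01 were set to 0.01 (-6.64 after log2), and miRNAs detected on at least 6 arrays were tested, 120 of 611. No spot was saturated. The labels name 6 individuals per group, and this number limits the precision. limma 3.58.1 in R 4.3.3 fitted 1 mean per group over all arrays, two-sided, with Benjamini-Hochberg adjustment over the 120 miRNAs of each of 6 comparisons and a threshold of 0.05; scipy 1.17.1 gave permutation p-values from 100000 resamples. The fit was tested on simulated data. Alternatives were other scalings, background corrections, floors, spot summaries and detection filters, the deposited table, blocks, array weights and left-out arrays. The methods' t-test was run on linear scaled values and adjusted without the detection filter. Tests planned for miR-126-5p, for the difference of the arms and for their relation were not run because the 5p arm was detected on no array.

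Named are both members, the 3 tested miRNAs with the highest r to miR-126-3p and called miRNAs of the endothelial list. Cell type markers called over both sexes were named after their values were seen. The members and lists were chosen with earlier results of these data known. The replicate number is the slide. Correlations of same-numbered arrays' deviations from their group means ran from -0.349 to 0.528 for the male groups and from -0.111 to 0.706 for the female groups. They were over 0.1 in 2 of 6 male pairs and 4 of 6 female pairs. The likeness of arrays on a slide was thus uneven, and the fit with the slide as a block called more miRNAs over both sexes.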

Additional observations from a re-analysis of the deposited data

How the results depend on the processing

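Over both sexes, miR-126-3p kept its direction in all 18 alternative settings and its call in 11. The call was lost with a percentile taken from every non-control spot (difference 1.15), without scaling (1.22), with normexp (0.39, chosen after seeing the data, since the files hold no mean signal and the median signal was used), with the total gene signal (0.84), in the authors' value table (1.14), with quantile normalization (0.82) and without the filter on dim miRNAs (0.75). The last is the same difference adjusted over 611 miRNAs; for the others the cause was not tested. The male difference was called with array weights (0.84) and without the 3 dimmest arrays (0.80, chosen after seeing the data). With normexp, the difference between the sexes' c-Raf effects turned to -0.46 and M WT minus F WT to 0.11. M c-Raf minus F c-Raf turned to 0.59 without scaling, 0.076 in the authors' value table, 0.10 with array weights, 0.062 without the 3 dimmest arrays and 0.60 by the methods' t-test. With 1 array left out, the differences ranged from 0.64 to 1.12 in males, 0.45 to 0.62 in females, 0.59 to 0.83 over both sexes, 0.09 to 0.57 for the interaction, -0.68 to -0.20 for M WT minus F WT and -0.19 to 0.062 for M c-Raf minus F c-Raf. With the replicate number as a block, the pairing by slide, the difference over both sexes was 0.75 (limma adjusted p = 0.0153), and no call of miR-126-3p changed. The number of miRNAs called over both sexes ran from 0 with normexp to 32 with the replicate block, beside 18. The log2 brightness covariate, the filter of 23 arrays, used since the 3p arm was not detected on all 24, and the floor set before the median were also chosen after seeing the data. Leaving both arms out of the percentile, which is counted among the 18 settings and the 11 that kept the call, could change nothing, since neither arm was among the 27 miRNAs used for it. Signal over background was low for the 5p arm on all arrays, the brightest included (0.712 units), and for the 3p arm on M WT replicate 4 and M c-Raf replicate 6.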
